A study of Mus musculus with 33 samples.

Results

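A set of 10 genes that the transcription factor p53 is known to switch on, of 56414 rows in the table, was followed in tumour-free C57Bl/6 mice. Treated mice received 0.5% nicotinamide (NAM, an amide of vitamin B3) in their drinking water over 1, 3 or 14 days, and the others were left untreated. The genes were chosen by symbol, as Cdkn1a, Ccng1, Mdm2, Trp53inp1, Bbc3, Bax, Aen, Eda2r, Phlda3 and Sesn2, and each matched 1 row. The 33 libraries were made from polyA RNA, of which 20 carry the label spleen (5 in each of 4 groups) and 13 the label lymph node (3 from untreated mice, 2 after 1 day, 4 after 3 days, and 4 after 14 days). The labels name 1 strain and no transgene, and give neither the age of the mice nor whether 1 animal gave both organs. The question was whether NAM brought a p53 response in any group of either labelled tissue.

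NAM is a precursor of NAD and the end product of the PARP enzymes, which it can inhibit, and PARP1 takes part in the repair of broken DNA strands. DNA damage stabilises the p53 protein (gene Trp53), which then binds sites near its target genes and raises their transcription. Some targets halt the cell cycle, others start cell death, others restrain growth signals, and Mdm2 returns p53 to its low level. Lymphocytes are among the cells that respond most readily to p53 with cell death.

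The tissue labels did not match the tissue markers. Glycam1, a mucin of the high endothelial venules of lymph nodes, was above Spic, the factor that defines red pulp macrophages of the spleen, in 20 of 20 libraries labelled spleen, with medians of 137789 and 994 normalised read counts. In 13 of 13 libraries labelled lymph node Spic was above Glycam1, with medians of 9043 and 8.82. The tissues are therefore named by their labels only. Whole reads per library numbered 18325061 to 54830743 under the spleen label (43632016 to 54830743 at 3 days, 48338251 or fewer in the other groups), and 30424968 to 46733974 under the lymph node label. The labels do not say that libraries of a group came from separate animals, so that p-values measure the spread between libraries, which may be technical.

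Promoters are shown for the 2 members that passed the test in a comparison with untreated mice (Bbc3 and Ccng1) and for Cdkn1a and Mdm2, widely used reporters of p53. They are RefSeq sequences of build GRCm38.p6, whose coordinates are those of mm10, from 250 bases before to 50 after a transcription start, written 5′ to 3′ on the gene's strand, and 9 of the 10 members had an entry. Capitals mark exact matches to the 10-base p53 half-site consensus, which reads the same on both strands. Bbc3 lies at chr7:16309333-16309632, plus strand, Ccng1 at chr11:40755237-40755536, minus strand, Cdkn1a at chr17:29090729-29091028, plus strand, and Mdm2 at chr10:117710709-117711008, minus strand.
Bbc3: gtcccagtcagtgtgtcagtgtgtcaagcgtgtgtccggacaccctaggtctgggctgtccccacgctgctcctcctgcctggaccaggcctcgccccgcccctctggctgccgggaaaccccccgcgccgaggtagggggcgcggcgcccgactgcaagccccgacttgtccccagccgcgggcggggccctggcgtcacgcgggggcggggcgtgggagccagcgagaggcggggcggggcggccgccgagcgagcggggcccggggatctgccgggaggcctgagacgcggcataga
Ccng1: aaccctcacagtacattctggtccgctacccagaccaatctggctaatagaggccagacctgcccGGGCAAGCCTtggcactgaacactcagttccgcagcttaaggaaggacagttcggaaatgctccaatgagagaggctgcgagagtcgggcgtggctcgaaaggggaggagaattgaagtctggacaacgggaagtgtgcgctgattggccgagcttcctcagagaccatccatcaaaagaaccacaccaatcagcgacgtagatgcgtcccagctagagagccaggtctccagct
Cdkn1a: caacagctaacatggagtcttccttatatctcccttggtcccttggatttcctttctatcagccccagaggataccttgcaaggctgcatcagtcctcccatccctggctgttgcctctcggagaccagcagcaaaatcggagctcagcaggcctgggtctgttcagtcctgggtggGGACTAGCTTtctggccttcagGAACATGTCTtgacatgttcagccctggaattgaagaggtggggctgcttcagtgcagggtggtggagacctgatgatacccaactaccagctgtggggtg
Mdm2: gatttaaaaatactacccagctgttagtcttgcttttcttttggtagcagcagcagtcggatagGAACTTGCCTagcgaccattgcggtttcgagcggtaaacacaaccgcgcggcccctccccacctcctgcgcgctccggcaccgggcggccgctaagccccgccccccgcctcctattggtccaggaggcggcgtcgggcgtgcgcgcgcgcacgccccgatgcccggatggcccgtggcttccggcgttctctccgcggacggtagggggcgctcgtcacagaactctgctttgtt

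The Ccng1 window held 1 match (GGGCAAGCCT) starting 185 bases before the start, the Mdm2 window 1 (GAACTTGCCT) at 186 bases, and the Cdkn1a window 2 (GGACTAGCTT and GAACATGTCT) at 73 and 51 bases. The other Cdkn1a entry of the table, further into the gene, held 0. No match to these letters lay in the Bbc3 window shown or in the other Bbc3 entries. A match was found in 8.36% of all 32851 RefSeq promoters and in 6 of the 13 entries of the members, which belonged to 5 genes, and a match is no evidence of binding.

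Bbc3, which encodes the BH3-only protein PUMA that starts mitochondrial cell death, rose after 1 day of NAM under the lymph node label. Its row lies at chr7:16309583-16318334 (mm10). Normalised read counts were 339, 351 and 337 in the untreated libraries and 592 and 723 at 1 day. They were 377, 422, 418 and 422 at 3 days, and 421, 377, 371 and 397 at 14 days. All treated libraries of this label lay above all 3 untreated ones, and those at 1 day lay apart from the rest. The log2 fold change at 1 day was 0.93 (95% interval 0.70 to 1.17, n = 2 and 3, limma adjusted p = 0.000437). At 3 days it was 0.26 (0.06 to 0.45, limma adjusted p = 0.198) and at 14 days 0.19 (−0.00 to 0.39, limma adjusted p = 0.436), neither past the test.

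The rise at 1 day rests on 2 treated libraries. Replicate 1 of these held RNA of the exocrine pancreas, with a mean log2 level of 13.51 over 9 acinar genes against 1.72 in replicate 2 and 1.69 to 2.30 in the other libraries of the label. Bbc3 was the lower of the pair in that library. The log2 fold change was 1.08 without replicate 1 (limma adjusted p = 0.00101) and 0.79 without replicate 2 (limma adjusted p = 0.00861). Each of these fits leaves 1 library at 1 day, which is assumed to vary like the other groups, and the latter rests on the library with pancreatic RNA. In bulk RNA a change in the make-up of cells and a change in RNA per cell cannot be told apart.

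Bbc3 was the 1 member of 10 that passed in this comparison, against 1.21% of all 18215 rows. The 2 groups did not overlap for 4 members, Bbc3, Bax, Phlda3 and Trp53inp1, all higher at 1 day. With so few libraries 32.6% of all rows did not overlap either (17.1% higher and 15.5% lower). The median log2 fold change of the members was 0.12 and that of all rows −0.00.

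**Figure D1:**
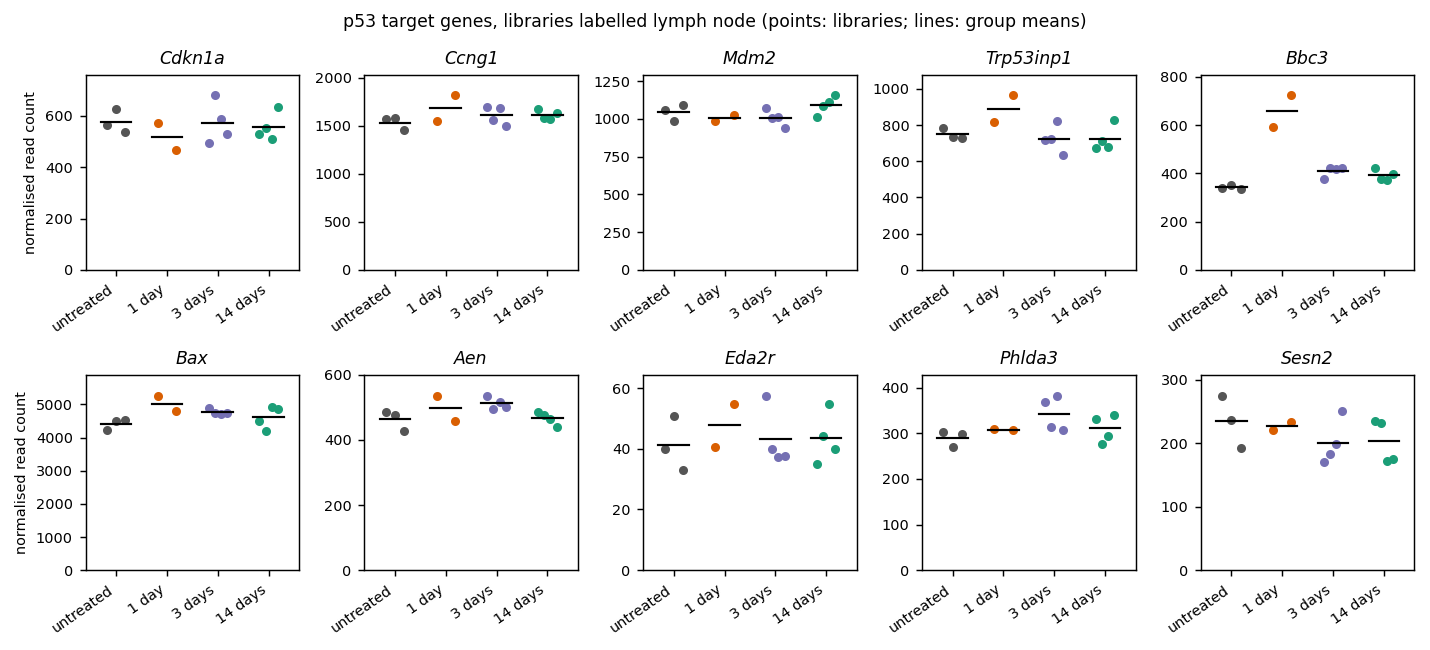
Normalised read counts of the 10 p53 target genes (y axes, from 0) in the libraries labelled lymph node, by group (x axes). Points are libraries and lines are group means. Bbc3 at 1 day (592 and 723) lies above every other library, a gap that none of the other 9 genes shows.

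Bbc3 did not pass at any time under the spleen label. Its counts were 1059.7, 821, 1197, 876 and 787 in untreated libraries and 784, 700.0, 758, 980.5 and 930.1 at 1 day, ranges that overlap, with a log2 fold change of −0.18 (−0.48 to 0.11, limma adjusted p = 0.394). At 3 days the counts were 1347, 774, 898, 936 and 786, and at 14 days 936, 815, 979, 971 and 919. The highest value of the label was replicate 1 at 3 days. The change at 1 day differed between the labels by −1.12 on the log2 scale (spleen minus lymph node, −1.55 to −0.69, limma adjusted p = 0.00702), and Bbc3 was the 1 member of 10 with such a difference, against 1.69% of 17147 rows (17.1% at an unadjusted p of 0.05 or less). Without replicate 2 of the 1-day lymph node label the difference was −0.97 and did not pass (limma adjusted p = 0.0685).

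The other members of the cell death branch did not pass limma in any comparison with untreated mice. Bax, whose protein opens the mitochondrial outer membrane, counted 4239.9, 4502 and 4527 in untreated libraries labelled lymph node and 5263 and 4792 at 1 day (log2 fold change 0.18, 0.02 to 0.35, limma adjusted p = 0.267). At 3 days it counted 4893, 4756, 4724 and 4744, above all untreated libraries by little (0.11, limma adjusted p = 0.431). In libraries labelled spleen Bax spanned 2543 to 3402 in untreated libraries, 2458 to 3106 after 1 day, 2301 to 3024 after 3 and 2675 to 3295 after 14, all overlapping. Its row overlaps that of Gm45808 on the same strand by 192 bases, so that reads may be shared.

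Aen, an exonuclease that promotes cell death, gave log2 fold changes between −0.08 and 0.14 over the 6 comparisons with untreated mice. Its counts at 3 days under the lymph node label (535, 496, 516 and 502) lay above the untreated 487, 477 and 429, though the change of 0.14 did not pass (limma adjusted p = 0.458). Eda2r, a receptor of the tumour necrosis factor family, was the member with the fewest reads. It counted 33.1 to 50.7 in untreated libraries labelled lymph node and 72.5 to 118 in those labelled spleen, and in every comparison its groups overlapped. Its interval at 1 day under the lymph node label, where that group has 2 libraries, ran from −0.39 to 0.81.

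Ccng1, which encodes cyclin G1 and is among the steadiest p53 targets across tissues, was the 1 member of 10 that passed under the spleen label, after 1 day of NAM. Counts were 1441, 1569, 1433, 1634 and 1454 in untreated libraries and 1810.4, 1631, 1753, 1883 and 1562 at 1 day. The groups overlap, with 3 of the 5 treated libraries above every untreated one. The log2 fold change was 0.20 (0.06 to 0.33, n = 5 and 5, limma adjusted p = 0.0463). As many as 16.6% of all 18243 rows passed in this comparison, so that 1 member of 10 lies below the share of all rows. The call was lost on leaving out any 1 of 7 of the 10 libraries (replicates 1, 3 and 4 at 1 day and untreated replicates 1, 2, 3 and 5), with limma adjusted p from 0.0539 to 0.121, and edgeR gave an adjusted p of 0.0532.

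At 3 days Ccng1 counted 1661, 1638, 1485, 1825 and 1664, and the change of 0.13 did not pass (limma adjusted p = 0.24). At 14 days it counted 1644, 1567, 1439, 1471 and 1487, close to the untreated libraries (0.02, −0.12 to 0.15). For the lymph node label the 1-day change was 0.13 (−0.05 to 0.32, limma adjusted p = 0.488), and the change did not differ between the labels by the test (0.06, −0.16 to 0.28, limma adjusted p = 0.827).

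Cdkn1a encodes p21, the inhibitor of cyclin-dependent kinases through which p53 halts the cell cycle, and its row lies at chr17:29090979-29100722. In untreated libraries labelled spleen it counted 1404, 1161, 1341, 1086 and 1001, and at 1 day 1326, 1112, 1661, 1232 and 1465. The groups overlap, and the log2 fold change of 0.18 (−0.07 to 0.43) did not pass (limma adjusted p = 0.318). It did not pass at 3 days either, when the counts were 1119.6, 1265, 1315, 1646 and 1529 (0.20, −0.05 to 0.44, limma adjusted p = 0.355). With library weights Cdkn1a passed at 1 and 3 days. With a score of adipocyte genes, described below, as a covariate it passed at 1 day. More of all rows passed in those fits too (closing section).

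In libraries labelled lymph node Cdkn1a counted 564, 626 and 538 untreated, 571 and 467 at 1 day, 494, 679, 588 and 529 at 3 days, and 530.2, 553, 510.0 and 634 at 14 days. No group stood apart, and the changes were −0.16, −0.02 and −0.05. Its row overlaps an antisense gene, AC167363.2, by 273 bases, and use of strand in the counting is not given in the sources used here.

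Mdm2, the ubiquitin ligase that degrades p53 and is itself a p53 target, varied little between libraries. Under the lymph node label it counted 1057, 989 and 1092 untreated and 984 and 1029.6 at 1 day, with a log2 fold change of −0.05 (−0.24 to 0.13). Under the spleen label it counted 841, 741, 715, 726 and 729 untreated and 846, 698, 869.9, 762 and 869 at 1 day (0.11, −0.04 to 0.25, limma adjusted p = 0.326). In all 6 comparisons its interval lay within a 1.5-fold change. With the adipocyte score as a covariate Mdm2 passed at 1 day under the spleen label, where more of all rows passed too.

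Trp53inp1, a stress protein that enhances p53 activity, counted 786, 737 and 730.4 in untreated libraries labelled lymph node and 818 and 964 at 1 day (log2 fold change 0.24, −0.01 to 0.49, limma adjusted p = 0.344). Under the spleen label it counted 687, 605, 592, 685 and 669 untreated and 927, 520.3, 791, 869 and 759 at 1 day. The lowest and the highest library of both groups were at 1 day, and the change of 0.23 did not pass (limma adjusted p = 0.217).

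Sesn2, a sestrin that restrains mTORC1, counted 284, 334, 297, 244 and 285 in untreated libraries labelled spleen and 318, 291, 369, 350.0 and 357 at 1 day. The change of 0.22 (0.03 to 0.42) passed at an unadjusted p of 0.0241 but not after adjustment (limma adjusted p = 0.101). At 14 days it counted 268, 259, 273, 279 and 303, and fell by 0.28 on the log2 scale from 1 day, short of the threshold (limma adjusted p = 0.054). From 1 to 14 days 0 of 10 members passed limma, 3 at an unadjusted p of 0.05 or less, 0 by edgeR and 1 (Sesn2) by DESeq2, against 10.6% of all rows by limma and 25.7% at an unadjusted p of 0.05 or less.

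**Figure D2:**
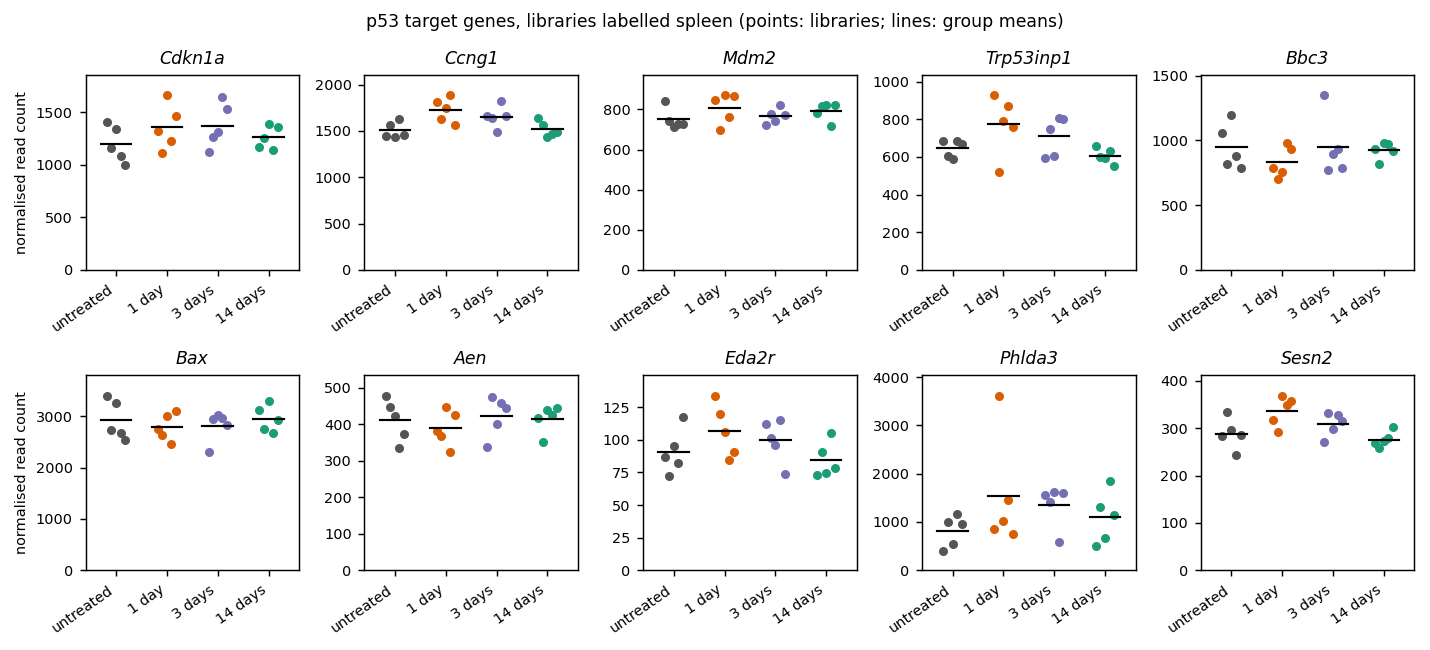
Normalised read counts of the 10 p53 target genes (y axes, from 0) in the libraries labelled spleen, by group (x axes). Points are libraries and lines are group means. The groups overlap for every gene, and Phlda3 varies the most, up to 3614.5 in a library at 1 day.

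Phlda3, a pleckstrin homology protein that restrains AKT, varied far more than the other members under the spleen label. It counted 405, 995, 541, 1163 and 951 untreated, 852, 3614.5, 1010.1, 1447 and 749 at 1 day, 1559.7, 1410.3, 1612, 582 and 1603 at 3 days, and 503, 1301, 668, 1848 and 1149 at 14 days. The groups overlap throughout, and replicate 2 at 1 day stands apart. The log2 fold changes of 0.76 (−0.12 to 1.64), 0.75 (−0.13 to 1.64) and 0.39 (−0.50 to 1.27) did not pass (limma adjusted p = 0.233, 0.315 and 1).

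The level of Phlda3 moved with that of fat genes over these libraries. The mean log2 level over 10 rows of adipocyte genes (Adipoq, Plin1 and others) ranged from 9.66 to 13.38, with 13.38 in replicate 2 at 1 day. Over the 20 libraries Pearson's r between this score and log2 Phlda3 was 0.95 and Spearman's rho 0.87 (permutation p = 1e-05 for each, the smallest that 100000 permutations can give, 4e-05 adjusted over 8 tests of 4 relations chosen after the values were seen). Without the 2 libraries farthest from the median score r was 0.91, and over deviations from the group means 0.96. With the score as a covariate the change at 1 day was −0.01 (limma adjusted p = 0.968). In the same fit Ccng1, Cdkn1a and Mdm2 passed at 1 day, and more of all rows passed than without the score (closing section). In 11 libraries labelled lymph node, where the score was 2.55 to 4.80 and the 1-day libraries were left out, r was −0.28 (permutation p = 0.399) and rho −0.24 (permutation p = 0.482), and Phlda3 counted 303, 269 and 299 untreated and 310.1 and 307 at 1 day. The part of fat tissue in the Phlda3 values was not tested otherwise. At 3 days under that label Phlda3 counted 368, 313, 382 and 307, all above the untreated libraries, and the change of 0.23 did not pass (limma adjusted p = 0.338).

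**Figure D3:**
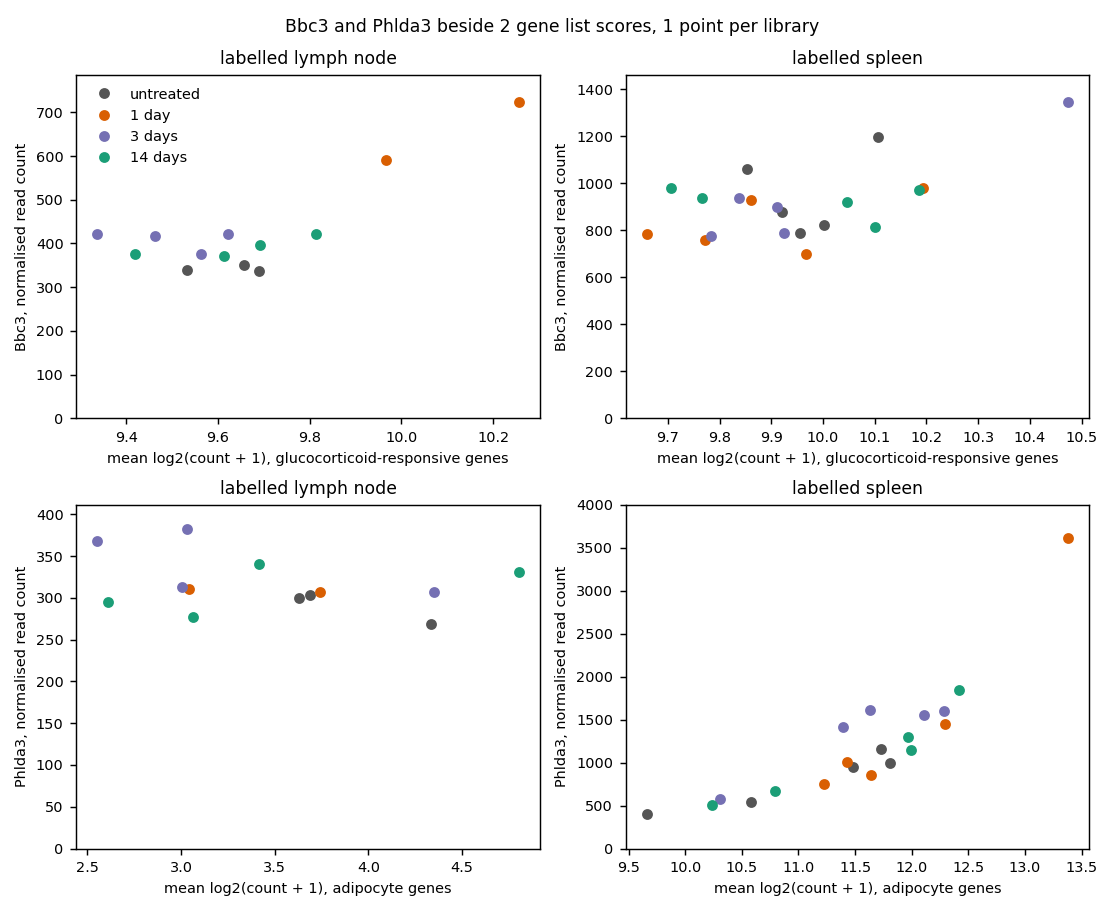
Normalised read counts of Bbc3 (top, y axis) against the mean log2 level of 9 glucocorticoid-responsive genes, and of Phlda3 (bottom, y axis) against that of 10 rows of adipocyte genes, in libraries labelled lymph node (left) and spleen (right). Each point is a library, coloured by group, and Phlda3 rises with the adipocyte score under the spleen label (r = 0.95).

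Across the list few members passed at any time against untreated mice. Shares of all rows in this section are by limma, and none by edgeR or DESeq2 was set beside their counts. For the spleen label 1 member passed at 1 day, 0 at 3 days and 0 at 14 days by limma, 0, 0 and 0 by edgeR and 1, 0 and 0 by DESeq2, and 2, 0 and 0 at an unadjusted p of 0.05 or less. All rows passed limma in 16.6%, 5.55% and 0% of cases, and had an unadjusted p of 0.05 or less in 30.9%, 22.0% and 2.80% (510 of 18243 rows at 14 days). For the lymph node label 1, 0 and 0 members passed by limma, by edgeR and by DESeq2, and 2, 2 and 0 at an unadjusted p of 0.05 or less, against 1.21%, 1.24% and 0.791% of all rows by limma, and 2726, 2694 and 2157 of 18215 rows at that unadjusted p.

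Most intervals were narrow. The 95% interval lay within a 1.5-fold change for 9 of 10 members at each time under the spleen label, Phlda3 being the exception, and for 8, 10 and 10 at the 3 times for the lymph node label, where Bbc3 and Eda2r were the exceptions at 1 day. Median log2 fold changes of the members at the 3 times were 0.19, 0.11 and 0.02 in libraries labelled spleen, then 0.12, 0.07 and 0.06 in those labelled lymph node, beside −0.00 to 0.01 over all rows. Groups did not overlap for 0 members at each time under the spleen label, beside 11.9%, 5.06% and 0.548% of all rows. For the lymph node label they did not for 4, 4 and 1, all higher, beside 32.6%, 15.3% and 11.5% of all rows. Of all rows 17.1%, 8.09% and 5.49% were apart and higher.

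The mean log2 level over the 10 members spanned 9.37 to 9.41 in untreated libraries labelled spleen, 9.52 to 9.61 after 1 day, 9.50 to 9.57 after 3 and 9.33 to 9.52 after 14. Without Phlda3 the ranges were 9.28 to 9.49, 9.30 to 9.56, 9.38 to 9.59 and 9.32 to 9.40, and overlapped. In libraries labelled lymph node the mean level was 8.94 to 9.06 untreated and 9.15 and 9.21 at 1 day. Without Phlda3 it was 9.02 to 9.16 untreated and 9.24 and 9.32 at 1 day, which stayed apart. Without Phlda3 and Bbc3 it was 9.10 to 9.25 untreated and 9.25 and 9.30 at 1 day. Bbc3 was the member called there, so that leaving it out narrows the gap by construction. These ranges are descriptions and were not tested.

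**Figure D4:**
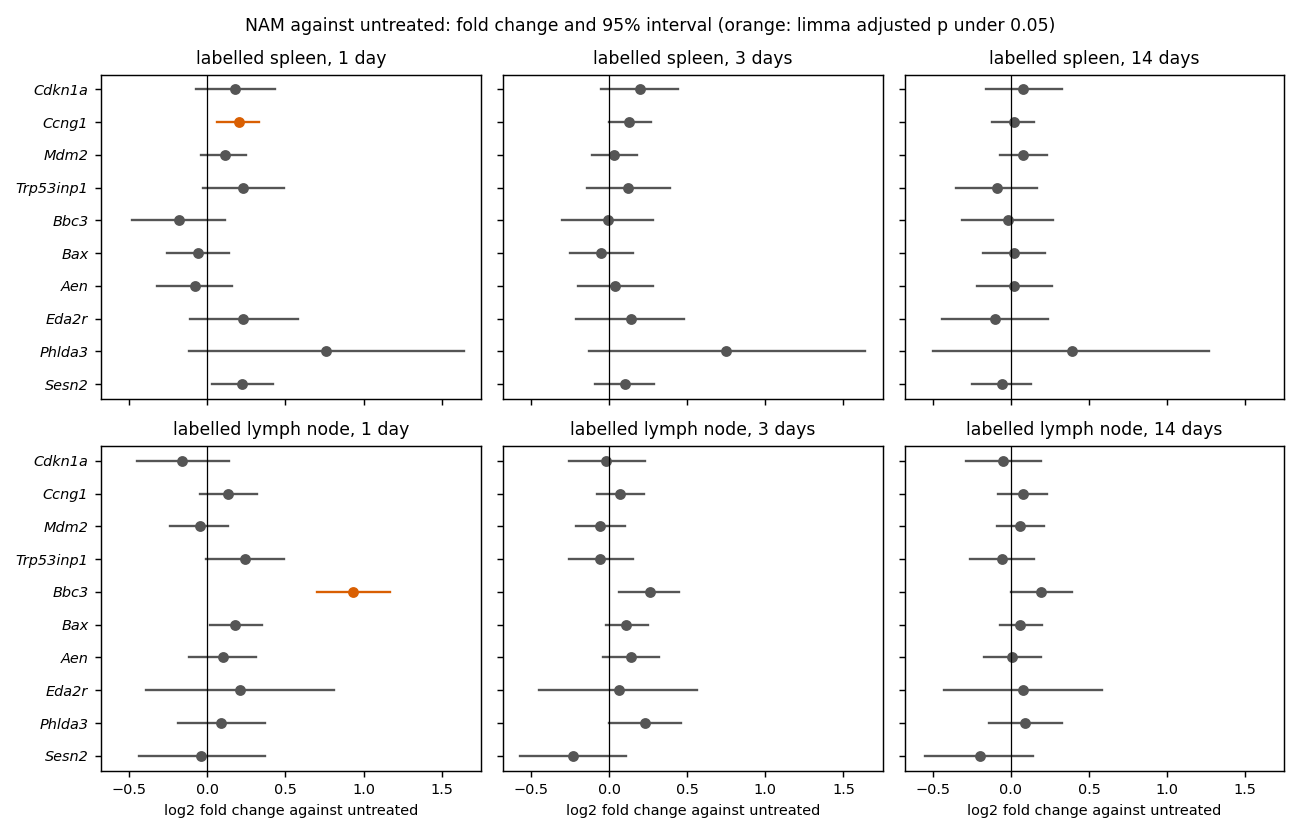
Log2 fold changes against untreated mice (x axes) of the 10 p53 target genes (y axes) at 1, 3 and 14 days in libraries labelled spleen (top) and lymph node (bottom). Bars are 95% intervals, and orange marks a limma adjusted p under 0.05, reached by Ccng1 (0.20) and Bbc3 (0.93) at 1 day.

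Between 3 and 14 days under the lymph node label 0 of 10 members passed by limma, edgeR or DESeq2, and 0 at an unadjusted p of 0.05 or less, against 0.0110% of all rows by limma and 5.84% at that unadjusted p. The change from untreated differed between the labels for 0 members at 3 days and 0 at 14 days by limma, edgeR and DESeq2, and 0 and 0 at an unadjusted p of 0.05 or less, against 0.735% and 0.140% of all rows by limma and 13.1% and 4.85% at that unadjusted p. Members of 1 sample share their RNA, and after removal of group means their 45 pairs had a median r of −0.03 over the 20 libraries labelled spleen, with 10 pairs above 0.5 and 4 below −0.5. Over the 13 labelled lymph node the median was 0.03, with 3 pairs above and 3 below.

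The 30 further p53 targets fixed as a list were counted in the same fits. Of these 3 rose and 2 fell at 1 day under the spleen label, 16.7% of the list beside 16.6% of all rows. Those that rose were Rps27l (log2 fold change 0.83, limma adjusted p = 0.000379), a ribosomal protein paralogue, Fas (0.31, limma adjusted p = 0.0236), the death receptor, and Triap1 (0.32, limma adjusted p = 0.0332), which restrains apoptosis. Those that fell were Pidd1 (−0.34), which activates caspase-2, and Ak1 (−0.74), an adenylate kinase.

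Rps27l showed the clearest separation of these genes. It counted 1248, 1228, 1315, 1161 and 1245 in untreated libraries labelled spleen and 1919, 2459, 2147, 2047 and 2462 at 1 day, with no overlap. At 3 days it counted 1236, 1999.6, 2069, 2062 and 2149 (0.59, limma adjusted p = 0.0108), replicate 1 lying among the untreated values, and at 14 days 1238 to 1433. It is nearly identical to Rps27, so that reads may be split between them. It did not pass under the lymph node label (3342 to 4071 untreated, 2972 and 3524 at 1 day), and the label difference at 1 day was 0.98 (limma adjusted p = 0.00774).

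Fas counted 757 to 1042 in untreated libraries labelled spleen, 1009 to 1225 at 1 day and 1002 to 1307 at 3 days (0.37, limma adjusted p = 0.0239), and was the other of 2 further targets that passed at 3 days, 6.67% of the list beside 5.55% of all rows. At 14 days 0 of 30 passed limma, and 1 had an unadjusted p of 0.05 or less, beside 2.80% of all rows. In libraries labelled lymph node 1 of 30 passed at 1 day (3.33%, beside 1.21% of all rows), Sesn1, a sestrin like Sesn2 (0.68, limma adjusted p = 0.00343), with 4094, 3893 and 4229 counts untreated and 5842 and 7249 at 1 day. Later, 0 of 30 passed limma there at 3 days and 0 at 14 days, with 8 at each time at an unadjusted p of 0.05 or less, beside 14.8% and 11.8% of all rows. At each time 5 of these 8 had negative and 3 positive log2 fold changes. The mean log2 level of the list was 8.48 to 8.52 untreated, 8.39 to 8.49 at 3 days and 8.34 to 8.44 at 14 days, the last without overlap with untreated libraries and lower, and its median log2 fold changes were −0.01 and 0.01.

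**Figure D5:**
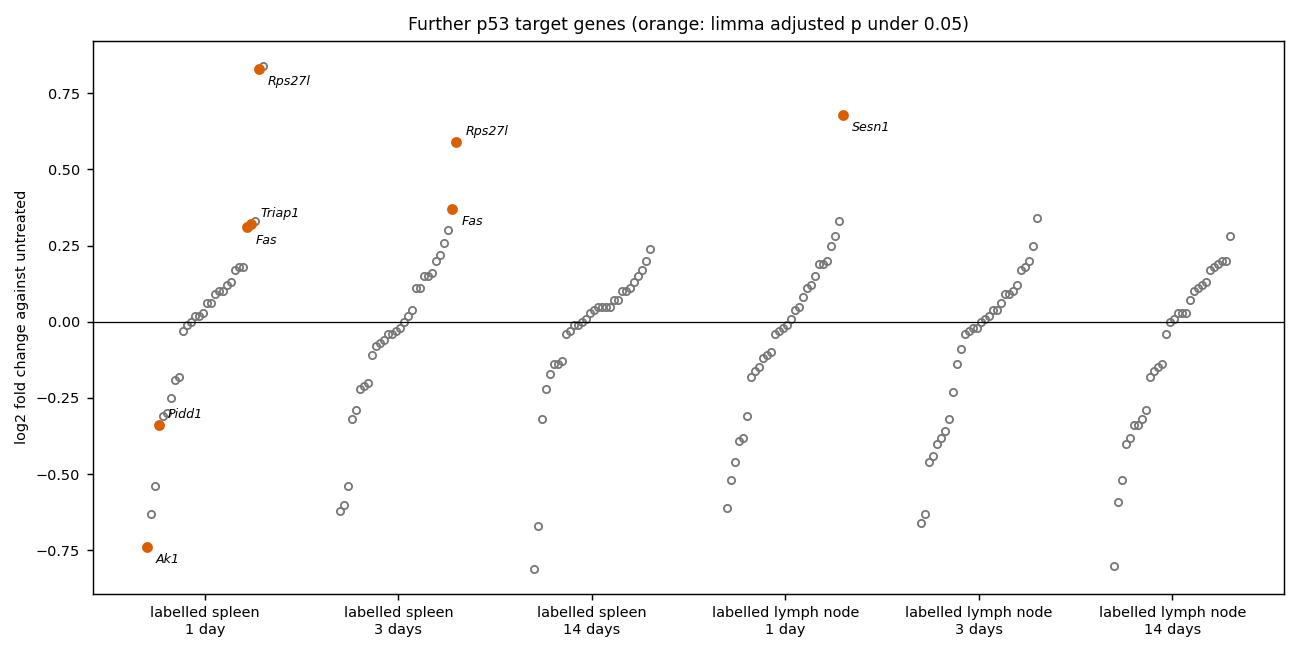
Log2 fold changes against untreated mice (y axis) of 30 further p53 target genes in each comparison (x axis), ordered by size, 1 point per gene. Orange points have a limma adjusted p under 0.05, and 5 do at 1 day under the spleen label, 3 higher and 2 lower.

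The genes that control p53 were counted next. Trp53 itself counted 3027 to 4053 in untreated libraries labelled spleen and 2974 to 4239 at 1 day (−0.02, −0.23 to 0.20), and 3038 to 3725 untreated and 2493 and 3170.3 at 1 day under the lymph node label (−0.25, −0.56 to 0.05, limma adjusted p = 0.426). Mdm4, the partner of Mdm2, had log2 fold changes of −0.16 and −0.12 at 1 day for the spleen and the lymph node label, and Atm, the kinase that signals double-strand breaks, of −0.02 and −0.04, none past the test. Of 14 such genes Prkdc, the catalytic subunit of DNA-PK, alone passed, under the spleen label at 1 day (0.40, limma adjusted p = 0.0254) and 3 days (0.41, limma adjusted p = 0.0453), 7.14% of the list beside 16.6% and 5.55% of all rows.

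Parp1, the main PARP, had log2 fold changes at 1 day of −0.10 (−0.26 to 0.06) for the spleen label and −0.20 (−0.42 to 0.02, limma adjusted p = 0.394) for the lymph node label, neither past the test. Of 21 tested genes for repair of DNA strand breaks 1 fell at 1 day under the spleen label, Parp2 (−0.30, limma adjusted p = 0.0159), and 0 passed limma in the other 5 comparisons with untreated mice, with 0 to 7 at an unadjusted p of 0.05 or less, where 2.80% to 22.0% of all rows had one. Of 14 cell cycle genes that p21 lowers 1 fell under the spleen label at 1 and 3 days, E2f1 (−0.52 and −0.49, limma adjusted p = 0.00728 and 0.0261), 7.14% of the list beside 16.6% and 5.55% of all rows, and 0 passed limma under the lymph node label, with 0, 6 and 7 at an unadjusted p of 0.05 or less at the 3 times, beside 2726, 2694 and 2157 of 18215 rows. Those 6 and 7 of 14, larger shares than the 14.8% and 11.8% of all rows, had negative log2 fold changes. The mean log2 level of the list was 9.31 to 9.59 untreated, 8.84 to 9.23 at 3 days, without overlap, and 8.78 to 9.42 at 14 days. Erythroid genes fell in the same groups (below), and their part in this list was not tested.

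Bbc3 is known to respond to glucocorticoids and growth factor loss as well as to p53. At 1 day under the lymph node label, where 1.21% of all rows passed, genes of other lists were set beside it. Of 9 glucocorticoid-responsive genes 3 rose, Tsc22d3 (1.38, limma adjusted p = 0.000936), Cebpd (1.13, limma adjusted p = 1.53e-05) and Klf9 (0.91, limma adjusted p = 0.0203), and of 10 ATF4 targets 1 rose, Ddit4, an inhibitor of mTORC1 (1.93, limma adjusted p = 0.000195). The mean log2 level of the ATF4 list was 8.60 to 8.68 untreated and 8.87 and 8.71 at 1 day. Ddit4 counted 3754, 3508 and 5841 untreated and 16978 and 15433 at 1 day. A gene's place on a list does not exclude other regulators, p53 included. The mean log2 level of the glucocorticoid list was 9.53 to 9.69 untreated, 9.97 and 10.26 at 1 day, and 9.34 to 9.81 at 3 and 14 days.

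The same score was set beside Bbc3 in the other libraries. In libraries labelled spleen r was 0.54 over 20 libraries (permutation p = 0.0145, adjusted 0.0388) and rho 0.33 (permutation p = 0.153, adjusted 0.305), and r was 0.21 without the 2 libraries farthest from the median score, so that it rests on those. Over deviations from the group means r was 0.52. Replicate 1 at 3 days had the highest score, 10.47, and the highest Bbc3 count of its label. Among 11 libraries labelled lymph node, those at 1 day left out, r was −0.14 (permutation p = 0.682), and 0.31 over deviations from the group means, the opposite sign. The part of glucocorticoids in the Bbc3 values was not tested otherwise. The genes whose log2 levels followed Bbc3 most closely over the 13 libraries labelled lymph node were Sla (r = 0.954) and Errfi1 (r = 0.944), and those most like Ccng1 over the 20 labelled spleen were the row of Eif5 and Snora28 (r = 0.858) and Cnot6 (r = 0.842).

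Markers of other cell types were counted in the same fits, and their part in the members' values was not tested beyond the adipocyte and erythroid covariates. At 1 day 16.6% of all rows passed under the spleen label (30.9% at an unadjusted p of 0.05 or less) and 1.21% under the lymph node label (2726 of 18215 rows at that unadjusted p). At 1 day 1 of 9 tested adipocyte rows rose under the spleen label (Retn, 1.61) and all 9 had positive log2 fold changes (0.70 to 1.61), both Pax5 rows among 7 B cell rows fell (−0.46 and −0.47), 1 of 6 macrophage genes fell (Cd68, −0.53) and 1 of 6 plasma cell genes rose (Xbp1, 0.33). Of 6 tested neutrophil genes 0 passed limma there and 3 had an unadjusted p of 0.05 or less, all 6 with positive log2 fold changes. At 3 days, where 5.55% of all rows passed, 1 of 6 macrophage genes (Cd68, −0.45) and 1 of 6 plasma cell genes (Prdm1, −0.47) fell. In libraries labelled lymph node 1 of 6 macrophage genes rose at 1 day (Cd14, 0.73). At an unadjusted p of 0.05 or less 5 of 6 macrophage, 4 of 6 plasma cell and 4 of 7 neutrophil genes rose. Lower there at that unadjusted p were a Pax5 row (−0.32), the lymph node gene Prox1 (−0.87) and the spleen gene Nkx2-3 (−0.25). The lymph node gene Chst4 was higher (1.78). At 3 days 6 of 9 erythroid genes fell under the lymph node label, among them Klf1 (−3.18). The erythroid score there was 14.14 to 14.62 untreated, 13.66 and 13.93 at 1 day, 10.12 to 13.10 after 3 days and 12.37 to 13.43 after 14. With that score as a covariate Bbc3 at 1 day changed by 0.91 (limma adjusted p = 0.0012). Of T cell, pancreatic acinar and erythroid genes 0 passed limma at 1 day under either label, and at an unadjusted p of 0.05 or less 0, 0 and 2 did under the spleen label and 3 of 6, 9 of 9 and 0 of 9 under the lymph node label, all with positive log2 fold changes. At 14 days there 2 of 7 neutrophil genes (Mpo, −1.59, and Elane, −1.24) and 1 of 9 erythroid genes (Klf1, −2.14) fell, and all 9 erythroid genes lay below the untreated libraries without overlap.

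The second principal component of the log2 values under the spleen label (13.6% of the variance), which is centred at 0, had 9 libraries above 0, namely all 5 at 1 day and 4 at 3 days, and 11 below, namely all untreated, all at 14 days and replicate 1 at 3 days. For the 1-day group treatment and the side of this component cannot be told apart. Without replicate 1 at 3 days 0 of 10 members passed limma at 3 days, where 2783 of 18230 rows did.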

How the data were processed

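RNA from organs labelled spleen and lymph node was sequenced as paired reads of 75 bases. The authors deposited a table of normalised read counts, a signal in which each library's counts are divided by a DESeq2 size factor. Their processing notes name mm10, STAR 2.4.0, SAMtools, Picard, FastQC and DESeq2. Whole reads were recovered from the steps between values (100.0% of values whole within 0.05), and the labels were scaled separately (recomputed and deposited size factors stood in ratios of 0.9999 to 1.0002 for spleen and 1.0289 to 1.0394 for lymph node), so that levels are not compared across labels. Groups came from the sample titles. Among 56 pairs of libraries within groups, 0 held identical values.

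The main test was limma 3.58.1 (R 4.3.3, intensity trend, two-sided) on log2(value + 1), with rows of mean 10 or more and all 4 groups of a label in the fit, and all 8 for differences between labels. Fold changes on this scale understate the change of low genes. P-values were adjusted by Benjamini-Hochberg over all rows tested, with a threshold of 0.05. Alternatives were edgeR 4.0.16, DESeq2 1.42.0, other filters, pseudocounts, scalings and covariates, the replicate number as a block, and leaving out each library. The fits were tested on simulated data.

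The 10 members and all gene lists were chosen with earlier results of these data known. Named genes are the members, Trp53, Mdm4, Atm and Parp1, Glycam1 and Spic, up to 4 genes past the threshold per list and comparison, and the 2 rows most like each member that passed. The member scores without Phlda3 and without Phlda3 and Bbc3 were chosen after values were seen, as were the relations with scores. In the closing section single values were restricted, also after values were seen, to comparisons with untreated mice and to members called elsewhere.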

Additional observations from a re-analysis of the deposited data

Results flagged for a closer look

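In 60 sets of 1 member and 1 group with 4 or 5 libraries, 7 held a library far from the others, where chance gives about 1 set in 20. Under the spleen label Mdm2 was high in untreated replicate 1 (841 against 715 to 741). At 3 days replicate 1 was high for Bbc3 (1347 against 774 to 936) and low for Bax (2301 against 2834 to 3024), and replicate 4 was low for Phlda3 (582 against 1410.3 to 1612). At 1 day replicate 2 was high for Phlda3 (3614.5 against 749 to 1447), with the highest adipocyte score of the label. Under the lymph node label replicate 1 at 3 days was low for Bbc3 (377 against 418 to 422) and high for Eda2r (57.4 against 37.3 to 39.8).

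The change of Bbc3 after 1 day of NAM differed between the labels by −1.12 on the log2 scale (limma adjusted p = 0.00702), with a rise under the lymph node label in 2 of 2 treated libraries.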

How the results depend on the processing

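Bbc3 at 1 day under the lymph node label passed in every fit run. In those without 1 of the 2 libraries at 1 day the lone library is assumed to vary like the other groups, so that they are no replicated test. Members that passed at 1 day under the spleen label numbered 1, and 0 with the 2 groups alone, with edgeR, with no filter, with quantile normalisation or with the rule of an unadjusted p and a 1.5-fold change, 3 with the adipocyte score as a covariate (Ccng1, Cdkn1a and Mdm2) and 4 with library weights (Ccng1, Cdkn1a, Sesn2 and Trp53inp1), fits in which 3922 and 3932 of all 18243 rows passed in place of 3030. At 3 days library weights gave 1 (Cdkn1a) in place of 0. From 1 to 14 days the number of 0 became 1 with DESeq2 and with a filter at a mean of 50 (Sesn2), 2 with the adipocyte covariate and 3 with library weights. Of these fits the count of all rows is given below for the adipocyte covariate only. The causes were not tested. Leaving out each library in turn gave 0 to 2 members at 1 day and 0 to 2 from 1 to 14 days under the spleen label, and 0 to 1 for the label difference at 1 day. Beyond the libraries that decide Ccng1, replicate 2 at 1 day decided Trp53inp1 at 1 day and Sesn2 and Trp53inp1 from 1 to 14 days, replicate 5 at 14 days Sesn2 and replicate 5 at 1 day Ccng1. All other counts stayed at 0, or at 1 for the lymph node label at 1 day.

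The replicate numbers were not shown to pair the samples. Under the spleen label deviations of same-numbered pairs had a median correlation of 0.04, beside −0.01 for other pairs. They ran from −0.50 to 0.47, above 0.1 in 13 of 30. Under the lymph node label the medians were −0.01 and 0.01, with 0 of 16 same-numbered pairs above 0.1. The check cannot exclude that libraries of the same number share a batch. With the replicate block the counts were 1, 0 and 0 under each label, as without it, and 1 for the label difference at 1 day. Over all rows it gave 132 in place of 221 for the lymph node label at 1 day, 79 in place of 126 for the label difference at 3 days and 4 in place of 2 from 3 to 14 days.

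Calls over all rows moved more. For the spleen label at 3 days 1013 became 145 with the 2 groups alone, 572 with no filter, 1686 with DESeq2, 2281 with the adipocyte covariate and 4722 with library weights, and 159 to 2783 without single libraries. From 1 to 14 days 1940 became 3152 with the adipocyte covariate, and at 14 days 0 became 1 with DESeq2, 1 with no filter and 3 with that covariate. For the lymph node label DESeq2 gave 540, 493 and 381 in place of 221, 226 and 144, the erythroid covariate 0 and 3 at 3 and 14 days, library weights 557 and 278, and no filter 139 at 1 day (66 to 125 without single libraries), and from 3 to 14 days 2 became 0 to 55. For the label differences of 290, 126 and 24 DESeq2 gave 660, 337 and 42, library weights 882 and 1944 at 1 and 3 days, and no filter 172 at 1 day.

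Changes called neither in the test nor under the alternative took the other sign under some alternatives, 121 of 2413 values over all 11 comparisons. Against untreated mice the adipocyte covariate gave Phlda3 −0.01, Bax 0.06 and Aen 0.02 at 1 day, Bbc3 0.03 and Bax 0.01 at 3 days and Bbc3 0.01 at 14 days under the spleen label. Library weights gave Bax 0.01 at 1 day and 0.07 at 3 days, and Bbc3 0.06 and Ccng1 −0.01 at 14 days. DESeq2 gave Bbc3 0.00 and edgeR 0.02 at 3 days. With 3 days of NAM and the lymph node label, library weights gave Cdkn1a 0.03, quantile normalisation Cdkn1a 0.02 and the erythroid covariate Mdm2 0.02, and at 14 days library weights gave Aen −0.00. Leaving out each library gave these log2 ranges. At 3 days the spleen label gave Bbc3 −0.15 to 0.08, Bax −0.10 to 0.02 and Aen −0.03 to 0.12. At 14 days the spleen label gave Bbc3 −0.08 to 0.07, Ccng1 −0.01 to 0.05, Bax −0.03 to 0.08 and Aen −0.05 to 0.08. At 1 day the lymph node label gave Sesn2 −0.17 to 0.08, Eda2r −0.00 to 0.42 and Aen −0.02 to 0.21. At 3 days the lymph node label gave Cdkn1a −0.10 to 0.05, Trp53inp1 −0.12 to 0.00 and Eda2r −0.08 to 0.22. At 14 days the lymph node label gave Cdkn1a −0.12 to 0.01, Eda2r −0.07 to 0.23 and Aen −0.05 to 0.04.

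The lymph node label at 1 day has 2 libraries, which limits precision there.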
